A study of Mus musculus with 8 samples.

Results

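The 6 genes described here are used early in lymphocyte development or in antibody assembly: Jchain (named Igj on the array), Dntt, Rag1, Rag2, Ptcra and Il7r. They were chosen by their difference between Sca-1+ and Sca-1- pDC in earlier results of these same arrays. All non-control probes carrying one of these names were read, which gave 8 probes for the 6 genes, out of 55681 probes for 36095 named features on the array. The probe with the highest mean log2 signal over the 8 arrays stood for its gene. All 6 genes had a probe, and 4 of them (Jchain, Dntt, Ptcra and Il7r) passed the background filter (the probe well above background on 4 or more of the 8 arrays) and entered the comparison across all genes. The main probes of Rag1 and Rag2 did not pass.

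The study asked whether Sca-1, a membrane-anchored protein encoded by Ly6a, separates developmental stages of plasmacytoid dendritic cells (pDC) that respond differently through TLR9. It measured 4 Sca-1+ and 4 Sca-1- pDC samples, each on its own single-colour Agilent array. Both groups came from female BALB/c bone marrow cells differentiated in culture with mFlt3-L, a cytokine that drives dendritic cell growth, and were separated by magnetic and flow cytometric sorting without further stimulation named in the labels. Sca-1+ and Sca-1- are gates of a sort and not engineered alleles. The labels do not say whether the replicates are separate cultures or animals, so p-values here measure no more than the spread among these 8 samples, which may be technical.

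pDC are dendritic cells that sense nucleic acids in endosomes and make type I interferon. They can arise from lymphoid as well as myeloid progenitors, and mouse pDC are known to carry transcripts otherwise tied to developing lymphocytes, and in some cells rearranged immunoglobulin gene segments. In developing lymphocytes, the RAG1 and RAG2 proteins cut antigen receptor genes and the enzyme encoded by Dntt adds nucleotides at the joints, while the interleukin-7 receptor gives survival signals and the pre-T cell receptor tests the first rearranged chain. The J chain links immunoglobulin M and immunoglobulin A units into polymers in plasma cells.

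Jchain and Dntt are the genes with the largest differences among the 6, so the first 30 bases of their probes and the promoter windows of both genes are shown. In the files, the Jchain probe lies at chr5:88949919-88949978 and the Dntt probe at chr19:41133936-41133995 (build mm9). The exon or untranslated region in which each probe falls was not analysed here. The probe bases, all in lower case, are as follows.
Jchain probe: ctgtactagtctttctcttaacctctcact
Dntt probe: aagcgcatcaatgcccacctgactcctgtg

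The promoter windows run from 250 bases before to 50 bases after the annotated gene start and come from RefSeq (GRCm38.p6), which is a different build from that of the probes. The Jchain window is chr5:88527848-88528147 on the minus strand, and the Dntt window is chr19:41029025-41029324 on the plus strand. Capitals mark each CANNTG word, the E-box that basic helix-loop-helix proteins such as the products of Tcf3, Tcf4 and Tcf12 can bind. The word reads the same on both strands. A match is a description of the letters and does not show binding.
Jchain promoter: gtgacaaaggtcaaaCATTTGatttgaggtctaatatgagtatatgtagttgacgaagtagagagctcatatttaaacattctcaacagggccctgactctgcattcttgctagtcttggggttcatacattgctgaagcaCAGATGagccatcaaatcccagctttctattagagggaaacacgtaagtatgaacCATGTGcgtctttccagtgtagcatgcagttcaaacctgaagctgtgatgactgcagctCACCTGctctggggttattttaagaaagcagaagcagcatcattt
Dntt promoter: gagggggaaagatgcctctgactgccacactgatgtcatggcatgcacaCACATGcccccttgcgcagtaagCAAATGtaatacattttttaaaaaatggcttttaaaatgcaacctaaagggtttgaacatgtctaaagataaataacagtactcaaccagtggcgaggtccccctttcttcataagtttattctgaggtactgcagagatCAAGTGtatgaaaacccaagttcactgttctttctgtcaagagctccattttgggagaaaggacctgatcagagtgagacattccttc

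The Jchain window held 4 CANNTG words, starting at -235, -109, -54 and 6 counted from the gene start with no position 0. At least 4 were found in 6.48% of 32544 distinct promoter windows, and at least 1 in 72.3%. The Dntt window held 3, at -201, -178 and -38, and at least 3 were found in 17.6% of windows. Ptcra and Il7r also held 3 each. All 3 in Ptcra read CAGCTG, and those of Il7r read CATCTG once and CACTTG at 2 places. Rag1 had 4 and Rag2 had 2. The narrower words CACCTG or CAGGTG stood in 20.3% of windows, and among the 6 genes once in Jchain and once in Rag1. The word TGTGGT or its reverse complement ACCACA, which RUNX proteins can bind, stood in 16.7% of windows. It was found once in Il7r and at 2 places in Rag1, a number reached by 1.80% of windows. The 6 windows thus had E-box words in common, as most promoter windows on this list do.

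A level below is a log2 processed signal minus the 75th percentile of the same array, so a level of 0 is the brightness that 75% of probes do not exceed. It compares 1 probe across arrays and does not rank 1 gene against another. Where 4 values of a group are given, they are those of replicates 1 to 4 in that order. As processed signal, that percentile was 166, 192, 200 and 396 for the Sca-1+ group and 232, 152, 209 and 434 for the Sca-1- group. Both replicate 4 arrays were brighter, and they were scanned on a different day from the others. Between 45.9% and 54.9% of non-control spots per array were well above background, and 0 were saturated. Arrays with the same replicate number lay on the same slide, with Sca-1- at array position 1 and Sca-1+ at position 2 each time, so group and array position cannot be told apart. Ly6a, the gene behind the sort, was 7.38, 7.82, 7.35 and 7.17 in Sca-1+ arrays and 3.14, 3.10, 2.67 and 2.21 in Sca-1- arrays. The groups were far apart in the direction of the labels. All 15 pDC markers examined, among them Siglech, Bst2 and Tcf4, were well above background on all 8 arrays, and 0 of them were called different by limma (adjusted p under 0.05; 3 of the 15 had an unadjusted p under 0.05). With the slide as a block, 2 were higher in Sca-1+ pDC (Lag3 and Ccr9) and 1 was lower (Ptprf).

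The values of the 6 genes in this contrast led to their choice, so their differences are a description and no test is read from them. Jchain and Dntt were higher in Sca-1+ pDC, with groups that did not overlap. Ptcra and Il7r had positive differences on all 4 slides, of about the size of the SD within groups, and their groups overlapped. The recombinase genes Rag1 and Rag2 were at or near background in both groups.

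**Figure D1:**
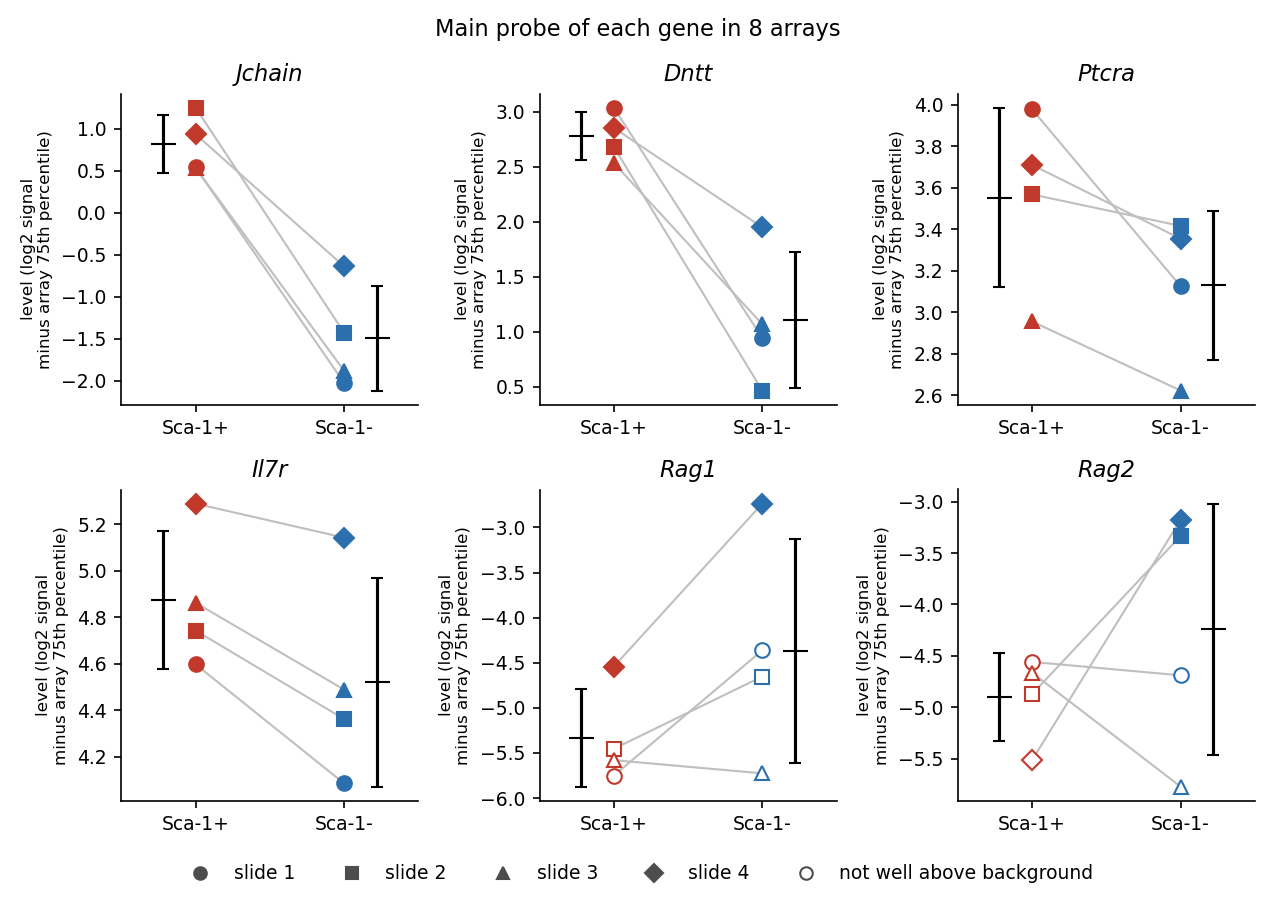
Level (log2 signal minus the array's 75th percentile) of the main probe of each gene in 4 Sca-1+ and 4 Sca-1- arrays, with lines joining arrays of the same slide, open symbols for signals not well above background, and black bars for the group mean ± SD. Jchain and Dntt had no overlap between groups, whereas most Rag1 and Rag2 symbols are open.

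Jchain, which encodes the joining chain of polymeric immunoglobulin, had levels of 0.54, 1.25, 0.53 and 0.93 in Sca-1+ arrays. It had levels of -2.03, -1.43, -1.88 and -0.64 in Sca-1- arrays. Every Sca-1+ array lay above every Sca-1- array, and 1.17 separated the lowest Sca-1+ from the highest Sca-1- level. As processed signal, before scaling, the same probe read 241, 457, 290 and 756 for Sca-1+ and 57.0, 56.6, 56.6 and 279 for Sca-1- arrays. Sca-1- replicate 4 stood above the other 3 Sca-1- arrays. The means were 0.81 ± 0.35 in Sca-1+ and -1.49 ± 0.62 in Sca-1- pDC (SD, n = 4 each). The difference was 2.31 ± 0.32 (SE of the limma fit; 95% interval 1.58 to 3.04), or 4.95-fold (2.99 to 8.20). Jchain was well above background on all 8 arrays, so Sca-1- pDC also carried a measurable signal. In these bulk samples, fewer cells with the transcript and less transcript per cell cannot be told apart.

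Dntt encodes terminal deoxynucleotidyl transferase, which adds bases without a template where V, D and J segments join. Its levels were 3.04, 2.68, 2.53 and 2.85 in Sca-1+ arrays and 0.94, 0.46, 1.07 and 1.95 in Sca-1- arrays. The groups did not overlap, with a gap of 0.58, and Sca-1- replicate 4 was again the highest of its group. As processed signal the probe read 1362, 1231, 1160 and 2858 for Sca-1+ and 446, 210.0, 437 and 1676 for Sca-1- arrays. The mean level was 2.77 ± 0.22 in Sca-1+ and 1.11 ± 0.62 in Sca-1- pDC (SD, n = 4 each), a difference of 1.67 ± 0.30 (SE; 95% interval 0.99 to 2.35) or 3.18-fold (1.99 to 5.08). The Sca-1+ arrays were close to each other, and the wider spread was among the Sca-1- arrays.

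Ptcra encodes the pre-T alpha chain, the invariant partner of the first T cell receptor beta chain, and is also used as a pDC gene. Its probe at chr17:46892827-46892886 (mm9) had levels of 3.98, 3.57, 2.95 and 3.71 in Sca-1+ arrays and 3.13, 3.42, 2.62 and 3.35 in Sca-1- arrays. The groups overlapped, and replicate 3 was the lowest array of each group. The mean was 3.55 ± 0.43 in Sca-1+ and 3.13 ± 0.36 in Sca-1- pDC (SD, n = 4 each). The difference of 0.42 ± 0.26 (SE) had a 95% interval from -0.17 to 1.02, which includes both no difference and a difference of about 2.02-fold. A block for the slide gave an interval from 0.10 to 0.75.

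Il7r encodes the alpha chain of the receptors for interleukin-7 and thymic stromal lymphopoietin. Its probe at chr15:9435976-9436035 (mm9) had levels of 4.60, 4.74, 4.86 and 5.29 in Sca-1+ arrays and 4.09, 4.36, 4.49 and 5.14 in Sca-1- arrays. The Sca-1+ array was the higher on each slide, but slide 4 was higher than the other slides in both groups and the groups overlapped. The mean was 4.87 ± 0.30 in Sca-1+ and 4.52 ± 0.45 in Sca-1- pDC (SD, n = 4 each), a difference of 0.35 ± 0.25 (SE; 95% interval -0.22 to 0.92). With the slide as a block the 95% interval was 0.13 to 0.57, and neither Il7r nor Ptcra was called in that fit.

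**Figure D2:**
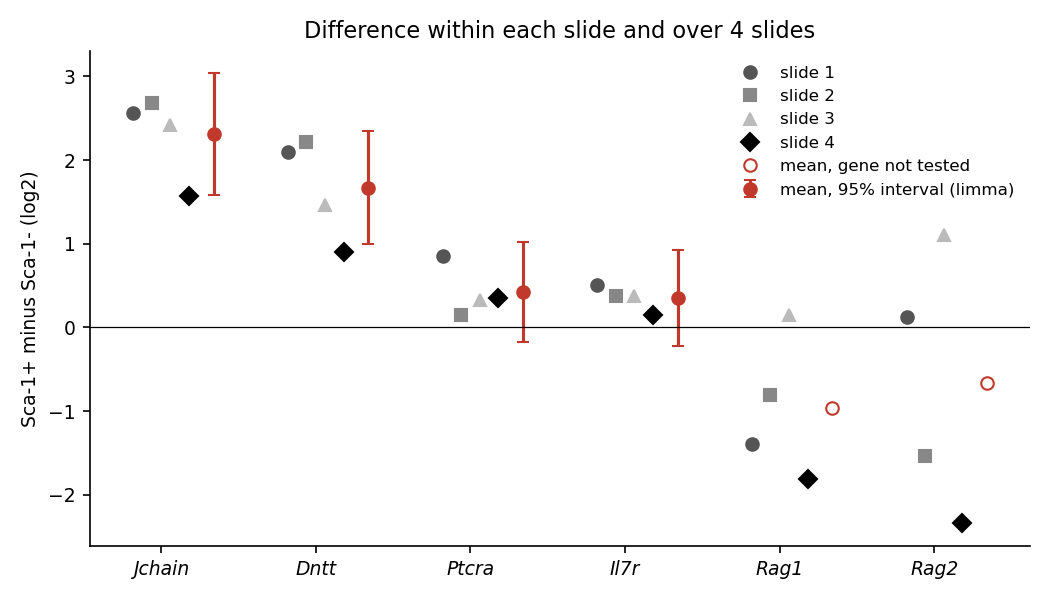
Difference in level, Sca-1+ minus Sca-1- (log2), within each of 4 slides (grey and black symbols), with the mean over slides (red) and its 95% interval from limma where the gene was tested. For Jchain and Dntt the smallest of the 4 differences was on slide 4, and for Rag1 and Rag2, where most signals were at background and the points are no measured differences, the slides did not share a sign.

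Within slides 1 to 4 the Jchain difference was 2.56, 2.68, 2.42 and 1.57. That of Dntt was 2.09, 2.21, 1.47 and 0.90. Slide 4, with its brighter arrays, gave the smallest difference for both genes, and its Sca-1- level was the highest of the 4 for both. The Ptcra differences within slides were 0.85, 0.15, 0.33 and 0.36, and those of Il7r were 0.51, 0.38, 0.37 and 0.15. All of these within-slide differences were positive. Slides 1 to 3 were scanned on the same day and slide 4 on another, so slide 4 and its scan day cannot be told apart. The part of slide and scan day in these values was not tested.

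Rag1 encodes the subunit of the V(D)J recombinase that cuts DNA. Its brighter probe (chr2:101478813-101478872, mm9, on 2 spots per array) had levels of -5.75, -5.45, -5.58 and -4.54 in Sca-1+ arrays and -4.36, -4.65, -5.73 and -2.74 in Sca-1- arrays. A signal well above background was marked for it on 1 array of each group, replicate 4 in both, so for the other 3 arrays of each group these values give only an upper limit. The processed signal on those arrays was 17.0 in Sca-1+ replicate 4, where only 1 of the 2 spots was marked well above background, and 65.1 in Sca-1- replicate 4, where both spots were. The other Rag1 probe (chr2:101481051-101481110) was well above background on 0 of 8 arrays, and its levels ran from -6.72 to -5.63 in Sca-1+ and from -6.09 to -5.40 in Sca-1- pDC. The probes of Rag1 thus differed on the 1 Sca-1- array where a signal was read from both spots of the brighter probe.

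Rag2 encodes the regulatory subunit of the recombinase and lies next to Rag1. Its brighter probe (chr2:101470723-101470782, 1 spot per array) had levels of -4.56, -4.87, -4.66 and -5.51 in Sca-1+ arrays and -4.69, -3.33, -5.77 and -3.18 in Sca-1- arrays. No Sca-1+ array (0 of 4) and 2 of 4 Sca-1- arrays (replicates 2 and 4) marked it as well above background, with processed signals of 15.1 and 48.0 on those 2 arrays. The other Rag2 probe (chr2:101472445-101472504) was printed on 10 spots and was well above background on no spot of any array among the spots kept. Its levels ran from -6.63 to -5.56 in Sca-1+ and from -6.93 to -5.42 in Sca-1- pDC. The SD between its kept spots within an array was between 0.09 and 0.47, which gives the scatter of signals at background. Among its spots flagged as outliers and left out, some were marked well above background. Their processed signals were 45.5 on Sca-1+ replicate 3, 24.1 on Sca-1+ replicate 4 and 83.5 on Sca-1- replicate 4. No fold is given for Rag1 or Rag2, since the main probe of each gave only a limit on 6 of 8 arrays.

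**Figure D3:**
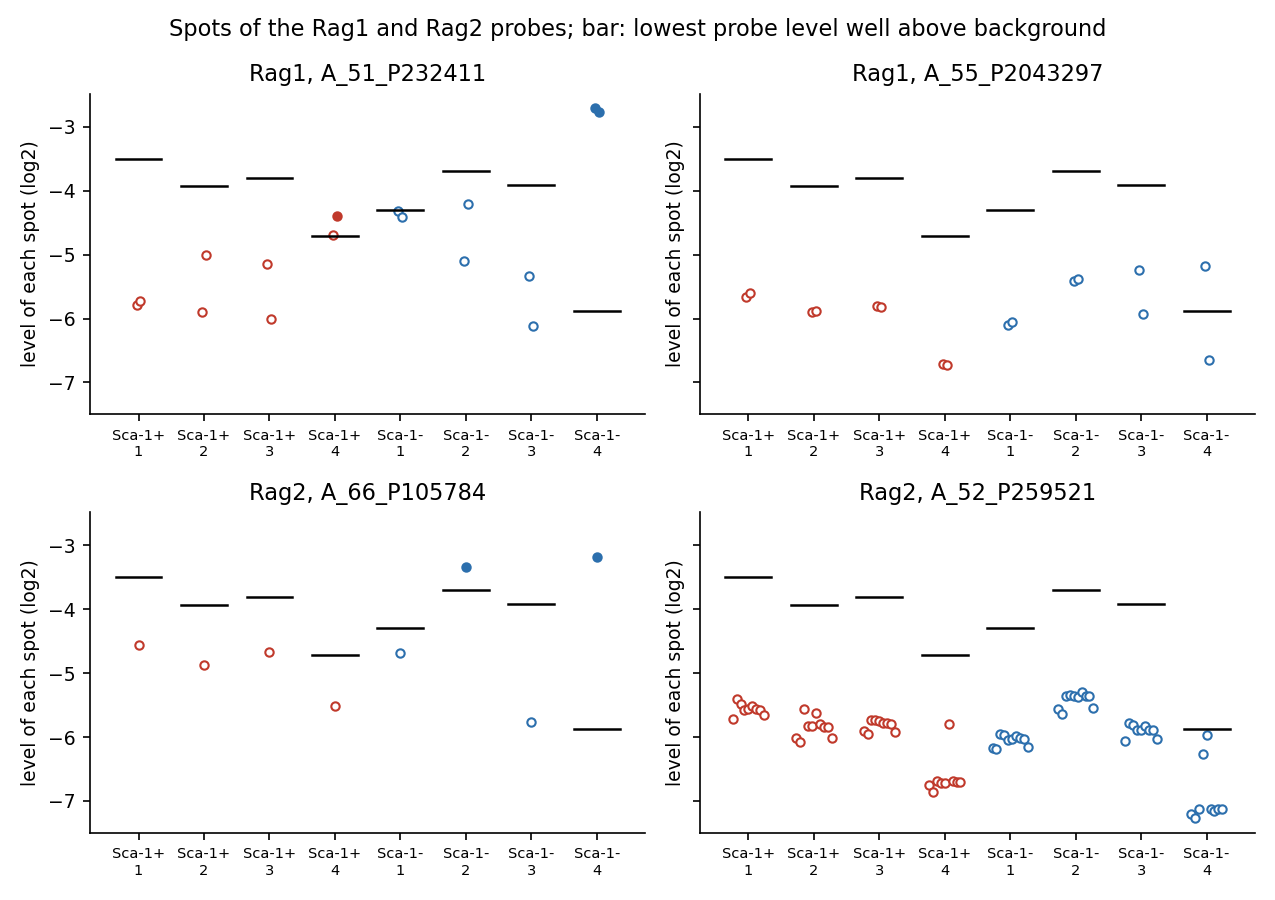
Level of each spot not flagged as an outlier, for the 4 Rag1 and Rag2 probes on 4 Sca-1+ (left) and 4 Sca-1- (right) arrays, filled where the spot was well above background. The black bar is the lowest level among all probes of that array that were well above background. Filled spots appear on Sca-1+ replicate 4 for Rag1, and on Sca-1- replicate 4 for both genes and Sca-1- replicate 2 for Rag2.

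Across all genes tested, limma (unpaired, two-sided, Benjamini-Hochberg adjustment over 19818 genes) called 339 genes at an adjusted p under 0.05, or 1.71% of those tested. Of these, 25 were higher in Sca-1+ pDC (0.126%) and 314 lower (1.58%). Jchain and Dntt were 2 of the 25 higher ones, and 2 of the 4 tested members were called. With the slide as a block, 1233 genes were called (6.22%), 416 higher (2.1%) and 817 lower (4.12%), and the same 2 members were among the higher. The groups did not overlap in 1377 genes (6.95%), 379 of them higher (1.91%) and 998 lower (5.04%) in Sca-1+ pDC, and 2 of the 4 tested members were among those. Dntt was no longer among the called genes on leaving out any 1 Sca-1+ array, or Sca-1- replicate 1, 2 or 3, and the count of called genes ran from 1 to 879 over the fits that left arrays out. Nothing is read from these counts, as the members were chosen with this contrast known. The median difference over all tested genes was 0.03, and 55.4% of them had a positive difference. An unadjusted p under 0.05 was found for 1776 of the 19818 genes, and such counts in the lists below stand beside that share.

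**Figure D4:**
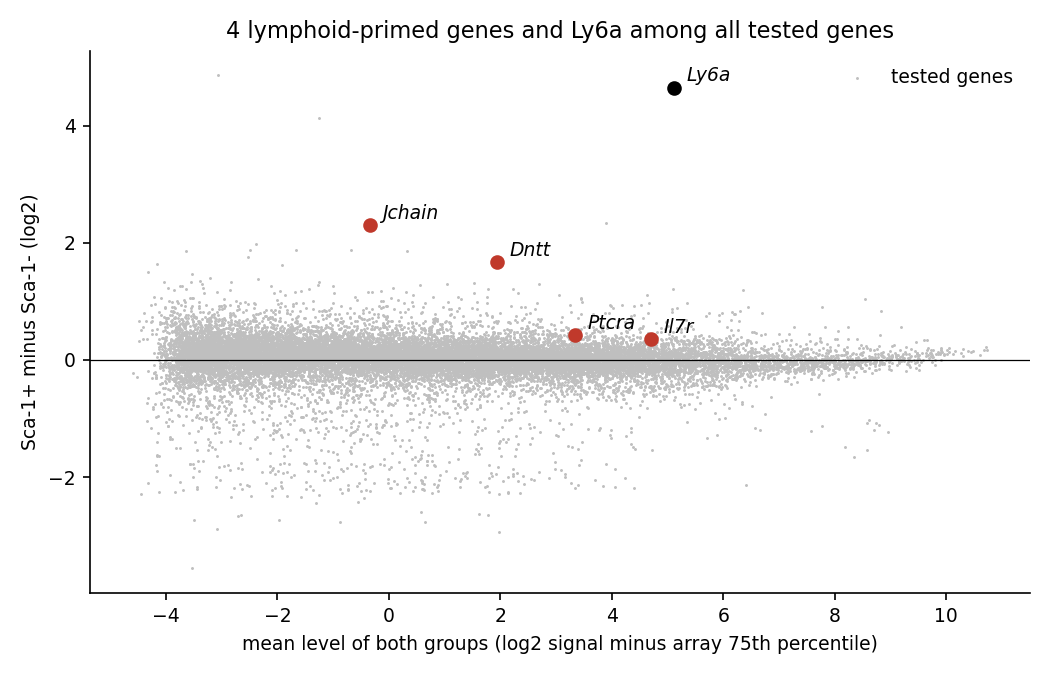
Difference in level, Sca-1+ minus Sca-1- (log2), against the mean level of both groups for 19818 tested genes (grey), with Jchain, Dntt, Ptcra and Il7r in red and Ly6a, the gene behind the sort, in black. Jchain at 2.31 and Dntt at 1.67 lie above most genes of their level, and Ptcra at 0.42 and Il7r at 0.35 lie within the grey points.

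The genes whose pattern over the 8 arrays was most like each tested member were found by the root-mean-square distance between mean-centred levels, over 11123 genes with a gene symbol detected above background on all 8 arrays. The gene nearest to Jchain was Dntt, at a distance of 0.52 against a spread of Jchain around its own mean of 1.23. Next came Rab7b, which encodes a late endosomal small GTPase, at 0.55 and Gimap6, a GTPase gene of the immunity-associated family, at 0.64. Those nearest to Dntt (own spread 0.93) were Gimap6 at 0.36, H2-Eb1, a beta chain of MHC class II, at 0.39 and the chemokine receptor gene Ccr10 at 0.41. Ptcra (own spread 0.41) was nearest to Cstad, Nrg2 and Usp18, all at 0.16. Il7r (own spread 0.37) was nearest to Cd28, a costimulatory receptor gene, at 0.037, to Ifi27 at 0.066 and to Akr1e1 at 0.076. The 8 arrays share slides and a sort, so a small distance describes these arrays only.

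Genes near Jchain or Dntt by this measure must differ between the groups, since both members do, so their differences are a description with no test. H2-Eb1 averaged 9.06 ± 0.08 in Sca-1+ and 8.01 ± 0.41 in Sca-1- pDC (SD, n = 4 each), a difference of 1.05 ± 0.20 (SE). Rab7b differed by 1.30 ± 0.30, Gimap6 by 1.18 ± 0.31 and Ccr10 by 1.29 ± 0.41 (SE of the limma fit). The groups of Ccr10 overlapped, and those of the other 3 genes did not.

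The genes that work with the 6 were read from 7 lists written by function with earlier results of these arrays known. The partners of the recombinase, which bend DNA, open the hairpins and join the ends, showed 0 of 13 tested genes called by limma, with a median difference of 0.08 beside 0.03 for all genes and 3 at an unadjusted p under 0.05. The end-joining genes Xrcc6 (3.95 in Sca-1+ and 3.87 in Sca-1- pDC on average), Lig4 (-0.48 and -0.38 in the same order) and Prkdc (0.70 and 0.59) were well above background on all 8 arrays. Nhej1, another end-joining gene, averaged 0.54 in Sca-1+ and 0.94 in Sca-1- pDC, a difference of -0.40 with groups that did not overlap. It was 1 of the 3 genes that passed before adjustment, with Hmgb2 and Hmgb1. Limma called it neither unpaired nor with the slide as a block. Dclre1c, which encodes the hairpin-opening nuclease Artemis, averaged 4.24 in Sca-1+ and 3.96 in Sca-1- pDC. Xrcc5, whose product pairs with that of Xrcc6, was well above background on 0 of 8 arrays. Whether its transcript was absent or its probe did not respond was not tested. All other genes of the list were tested.

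Once the slide was taken as a block, 2 of those 13 genes passed and both were lower in Sca-1+ pDC. They were Hmgb2 and Hmgb1, DNA-bending proteins that assist the recombinase and serve in chromatin generally. Hmgb2 had levels of 5.33, 5.18, 5.21 and 4.45 in Sca-1+ arrays and 6.83, 6.63, 6.57 and 5.48 in Sca-1- arrays, a difference of -1.33 (limma adjusted p = 0.119 unpaired and 0.00264 with the block). Hmgb1 differed by -0.58 (adjusted p = 0.205 unpaired and 0.0400 with the block, limma). In the same samples 17 of 20 cell cycle genes were lower in Sca-1+ pDC by limma, with a median difference of -1.98. The summed level of those 20, as multiples of the 75th percentile signal, was 84.1 to 112 in Sca-1+ and 239 to 388 in Sca-1- arrays, and its part in the Hmgb2 and Hmgb1 values was not tested.

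Of the interleukin-7 receptor pathway, 12 of 14 genes were tested and 0 were called by limma unpaired (3 at an unadjusted p under 0.05), with a median difference of 0.03. Jak1 averaged 4.14 in Sca-1+ and 4.05 in Sca-1- pDC, and Crlf2, the partner of the Il7r chain in the receptor for thymic stromal lymphopoietin, 5.89 in Sca-1+ and 5.87 in Sca-1- pDC. The ligands Il7 and Tslp were not well above background on any array. In the fit with that block, 1 gene was higher and 1 lower. Il2rg, the common gamma chain that pairs with the Il7r chain, had levels of 2.00, 2.30, 2.19 and 3.47 in Sca-1+ and 1.53, 1.37, 1.39 and 3.12 in Sca-1- arrays, a difference of 0.64 (limma adjusted p = 0.915 unpaired and 0.0425 with the block). Bcl2, a survival gene that interleukin-7 signalling supports in lymphocytes, had 1.71, 1.55, 1.52 and 0.82 in Sca-1+ and 3.09, 3.10, 3.04 and 2.00 in Sca-1- arrays. It differed by -1.41 (limma adjusted p = 0.0735 unpaired and 0.00151 with the block), with groups that did not overlap. The other 2 genes with an unadjusted p under 0.05, Socs1 and Cish, encode feedback inhibitors of cytokine signalling and had differences of the opposite sign. Socs1 averaged 0.22 in Sca-1+ and -0.41 in Sca-1- pDC, a difference of 0.63 (limma adjusted p = 0.123 unpaired and 0.0586 with the block). Cish averaged -2.98 in Sca-1+ and -3.86 in Sca-1- pDC, a difference of 0.88 (limma adjusted p = 0.125 unpaired and 0.0612 with the block), and was well above background on 4 Sca-1+ and 2 Sca-1- arrays. The groups of both genes did not overlap, and neither passed the threshold in either fit. For Il2rg and Bcl2, slide 4 stood apart from slides 1 to 3 in both groups.

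Of the 15 genes of the pre-T cell receptor and Notch list, 7 were tested and 0 were called by limma with or without the slide as a block (1 at an unadjusted p under 0.05 unpaired), with a median difference of 0.28. The T cell genes Cd3d, Cd3g, Gata3, Tcf7 and Bcl11b and the Notch targets Hes1 and Dtx1 were not well above background on any array. Cd3e averaged 2.36 in Sca-1+ and 2.18 in Sca-1- pDC, and Notch1 averaged -0.97 in Sca-1+ and -1.25 in Sca-1- pDC. The 2 genes of this list with the smallest p were Zap70, a kinase of receptor signalling, at -0.70 and Lcp2, an adaptor, at 0.51. Of the 15 genes listed with Ptcra, 7 were thus well above background on no array. On all 8 arrays 5 were, namely Cd3e, Lck, Zap70, Lat and Notch1.

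The pre-B cell receptor list gave 9 tested genes, with 0 called by limma in either fit (1 at an unadjusted p under 0.05) and a median difference of 0.17. The surrogate light chain gene Vpreb1 averaged -0.72 in Sca-1+ and -0.89 in Sca-1- pDC, and its partner Igll1 had no array well above background. The signalling genes Blnk and Blk had the smallest p, with differences of 0.35 and 0.33. Bank1 was also undetected. Of the B cell markers, Ms4a1, Pax5 and Igll1 were well above background on no array. The 6 that were tested gave 0 limma calls (1 at an unadjusted p under 0.05), and 5 of them had positive differences. The summed level of those 6 was 14.4 to 20.6 in Sca-1+ and 9.40 to 17.0 in Sca-1- arrays.

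The polymeric immunoglobulin and plasma cell list, to which Jchain belongs by function, had 13 tested genes. Of these, 0 were called by limma in either fit (0 at an unadjusted p under 0.05), and the median difference was 0.03. Xbp1, the transcription factor of secretory cells, had a difference of 0.35, with levels of 8.58, 8.49, 8.48 and 8.74 in Sca-1+ and 8.07, 8.29, 7.90 and 8.62 in Sca-1- arrays, and Ern1 had 0.14. Pigr, which encodes the receptor that carries J chain-containing immunoglobulin across epithelia, averaged 5.83 in Sca-1+ and 5.46 in Sca-1- pDC, and Mzb1, a chaperone gene of antibody-secreting cells, 0.43 in Sca-1+ and 0.19 in Sca-1- pDC. The plasma cell gene Tnfrsf17 and the kappa constant region Igkc were not well above background on any array. No probe carried the names Ighm, Ighg2b or Igha. The summed level of 6 plasma cell markers was 42.6 to 52.9 in Sca-1+ and 49.8 to 99.8 in Sca-1- arrays. Most of that sum was Slpi, a protease inhibitor gene that many cell types express, which averaged 5.44 in Sca-1+ and 6.12 in Sca-1- pDC. Without Slpi, singled out after its values were seen, the sum of the other 5 was 4.09 to 7.34 in Sca-1+ and 3.73 to 6.26 in Sca-1- arrays, and these ranges overlapped. The part of plasma cells in the Jchain difference was not tested.

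Of 22 tested lymphoid transcription factor genes, limma called 1, and it was lower in Sca-1+ pDC (2 at an unadjusted p under 0.05). Sox4, a factor of early B and T cell development, had levels of 1.34, 1.01, 0.86 and 1.11 in Sca-1+ arrays and 2.51, 2.53, 2.11 and 1.93 in Sca-1- arrays. Its groups did not overlap, and the difference was -1.19 (limma adjusted p = 0.0155). The call was lost without Sca-1+ replicate 2 or 3 or Sca-1- replicate 1 or 2, with limma adjusted p-values of 0.0624 to 0.0697. Over all 21 alternatives to the main fit, Sox4 was called in 13. The same fit with the block called 2 more: Id3 (0.97; limma adjusted p = 0.559 unpaired and 0.0113 with the block) and Id2 (0.54; 0.719 unpaired and 0.0485 with the block), both higher in Sca-1+ pDC. Both encode proteins that bind E proteins, the basic helix-loop-helix factors, and keep them off DNA. The E protein genes Tcf3 (1.41 in Sca-1+ and 1.59 in Sca-1- pDC), Tcf4 (6.28 and 6.22 in the same order) and Tcf12 (2.69 and 2.64) were not called in either fit, and the median of the list was 0.06. Beside Sox4, the other gene of the list with an unadjusted p under 0.05 was Gfi1. It differed by 1.19 (limma adjusted p = 0.160 unpaired and 0.101 with the block), of the opposite sign to Sox4. Its groups did not overlap, but it was well above background on only 3 Sca-1+ arrays and 1 Sca-1- array. Pax5 and Erg were not well above background on any array, and Ebf1, the factor of B cell commitment, was on 1 of 8.

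The list of surface and signature genes of early lymphoid progenitors had a negative median, of the opposite sign to Jchain and Dntt. Of 17 tested genes, 2 had a positive difference, beside 55.4% of all tested genes. The median was -0.57 beside 0.03 for all genes, with 6 at an unadjusted p under 0.05 beside 1776 of all 19818. Cd93, a surface receptor of early progenitors, was called by limma, with levels of 1.58, 1.38, 1.05 and 1.66 in Sca-1+ and 3.75, 3.30, 2.97 and 3.57 in Sca-1- arrays (difference -1.98, adjusted p = 0.00503). Blocking on the slide also called Egfl7 (-1.23, limma adjusted p = 0.0104), Csf1r (-1.19, adjusted p = 0.00637), Cnn3 (-1.17, adjusted p = 0.0315), Cd24a (-0.87, adjusted p = 0.0167) and Ccnd2 (-0.62, adjusted p = 0.0154) lower. Only Ccr9, a homing receptor that pDC and thymus-seeding cells share, was called higher in that fit (0.55, limma adjusted p = 0.0495). Flt3, Kit and Ly6d, which also mark such progenitors, were not called in either fit. The Csf1r difference was smaller, at -0.54, when all probes of the gene were averaged, and Csf1r was called in 3 of 21 alternatives. The summed level of 10 early progenitor markers was 9.61 to 17.0 in Sca-1+ and 18.5 to 29.7 in Sca-1- arrays. Of the 10, 2 had a positive difference. Limma called 1 unpaired, Cd93, and 2 with the slide as a block, all lower in Sca-1+ pDC. The gap between the ranges of that sum rested on Cd93. Without it the sum of the other 9 was 6.44 to 14.0 in Sca-1+ and 6.87 to 16.2 in Sca-1- arrays, which overlapped. The cell cycle sums given beside Hmgb2 also differ between the groups, and their part in the values of this list was not tested.

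**Figure D5:**
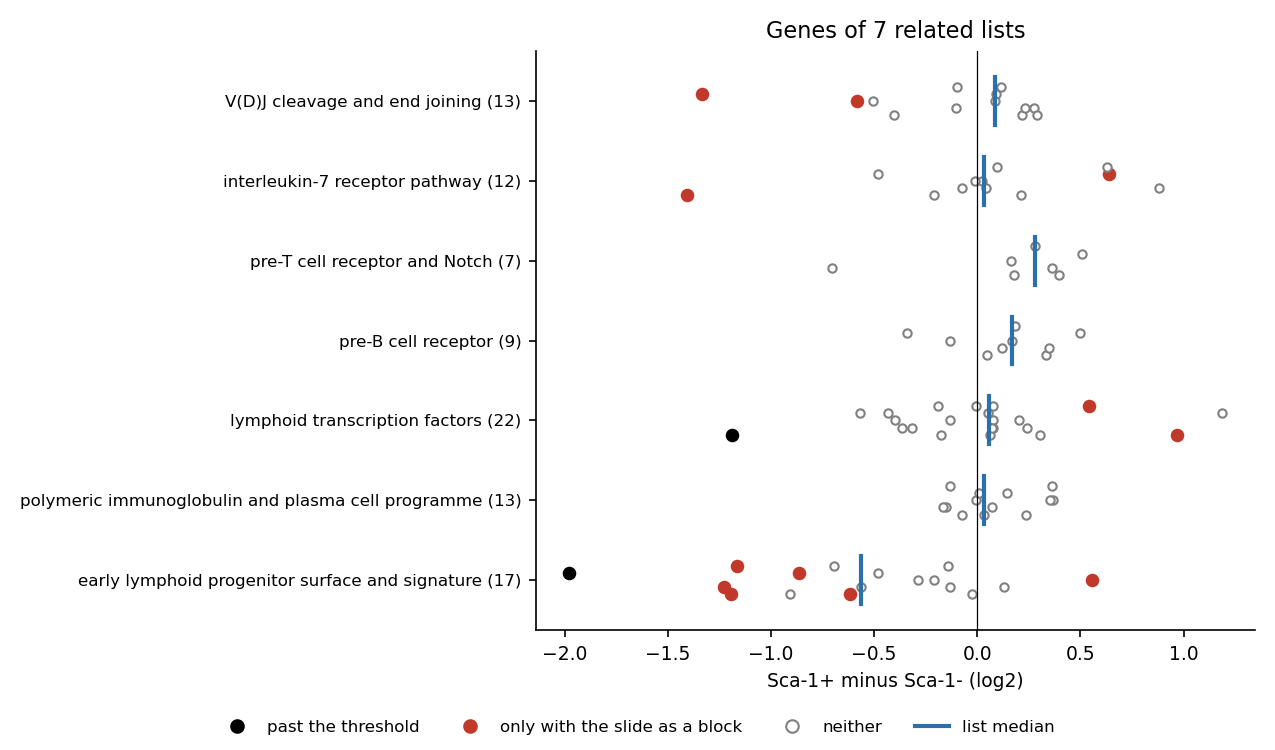
Difference in level, Sca-1+ minus Sca-1- (log2), of each tested gene in 7 functional lists (number tested in brackets), with blue bars for list medians, black points for genes past the limma threshold, red points for genes past it only with the slide as a block, and open points for the rest. The early lymphoid progenitor list has its median at -0.57, and the medians of the other lists lie between 0.03 and 0.28.

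Markers of T cells were also read. Cd3d and Cd3g were well above background on no array. The markers Cd3e, Cd2, Cd5, Cd4 and Thy1 were well above background on all 8 arrays, Cd8b1 on 7 and Cd8a on 2. The summed level of the 9 markers with a probe was 21.8 to 24.8 in Sca-1+ and 18.5 to 25.8 in Sca-1- arrays. Thy1, which is found on T cells and on immature cells, was the 1 marker of 6 tested that limma called, and it was lower in Sca-1+ pDC (-1.80, adjusted p = 0.0481). The part of other cell types in the Jchain and Dntt values was not tested beyond these marker values.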

How the data were processed

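Per the file headers, the authors read linear spot intensity with Agilent Feature Extraction 10.7.3.1 (build mm9), and its processed intensity already had the background removed. The labels name both an amplified polyA RNA and a low-input Cy3 labelling kit, with no word on how they relate. The series matrix deposited by the authors holds log2 values (median 3.90 in each column, 22 values missing) that correlated with the arrays at 0.998 to 1.00, and it was used as an alternative. How its scale was centred is not stated in the labels.

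Control spots and 105 to 162 outlier spots per array were left out, replicate spots were averaged as log2 values, and each array's 75th percentile was subtracted. Names came from the RefSeq gene table through the accession for 26582 probes, a current symbol for 2602 and an older symbol for 492, while 26005 stayed under the array's own name. The filter asked that a gene's brightest probe be well above background on 4 or more of 8 arrays. The fit was limma 3.58.1 in R 4.3.3 (lmFit, eBayes, two-sided, Benjamini-Hochberg over all tested genes, threshold 0.05), run with version 1.17.8 of data.table and tested on simulated data. Figures used matplotlib 3.10.9 under Python 3.11.15, with pandas 2.3.3 and numpy 2.4.6. With 4 arrays a group, the number of arrays limits the precision.

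The members, lists and tests were chosen with earlier results of these data known. Named genes are Ly6a, the members, the genes of each list past the threshold in either fit or otherwise the 2 with the smallest p, and the 3 genes nearest each tested member. Other list genes and gene symbols that the text gives for undetected, detected, uncalled or unchanged examples were picked after their values were seen. Same-numbered samples shared a slide, and their deviations from the group means correlated at 0.44, 0.43, 0.64 and 0.89 for replicates 1 to 4, each above the 0.1 set for treating numbers as pairs. Samples of unlike number also correlated, such as Sca-1+ replicate 1 with Sca-1- replicate 2 (0.54) and with Sca-1- replicate 3 (0.43). Replicate 4 of either group correlated negatively with replicates 1 to 3 of the other group, from -0.72 to -0.39. These correlations alone therefore do not show that replicates 1 and 2 are pairs. Alternatives were background correction, normalization, scaling, the filter, the slide as a block, array weights, all probes of a gene, the deposited log2 values and leaving out arrays. No arrays held identical values. A gene of the lists is not reported here.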

Additional observations from a re-analysis of the deposited data

Results flagged for a closer look

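Among 52 groups of 4 arrays examined (the 6 members and 20 named genes of the lists, each in both groups), 4 held an array far from the other 3, where chance gives about 1 in 20. None of the 4 was a lymphoid-primed member, and in each the array was a replicate 4. Bcl2 had a level of 2.00 in Sca-1- replicate 4, and 3.04 to 3.10 in the other Sca-1- arrays. Il2rg had 3.12 in Sca-1- replicate 4, and 1.37 to 1.53 in the others. Id3 had 2.45 in Sca-1- replicate 4, and 0.72 to 0.98 in the others. Csf1r had 2.45 in Sca-1+ replicate 4, and 3.65 to 3.74 in the other Sca-1+ arrays. Replicate 4 was also the pair scanned on a separate day, and the part of the scan day in these values was not tested.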

How the results depend on the processing

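The Jchain difference ran from 1.70 to 2.59 over 21 alternatives (log2, Sca-1+ minus Sca-1-) and was past the threshold in 18 of them. It was smallest with normexp background correction, at 1.70. The Dntt difference ran from 1.46 to 1.95 and was past the threshold in 9 of 21. Ptcra (0.25 to 0.62) and Il7r (0.21 to 0.56) stayed positive in all 21 and were called in 0 of them. No range is given for Rag1 and Rag2, whose probes gave only a limit on most arrays.

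The number of members past the threshold was 1 with normexp (Jchain) and 1 with no filter on dim probes (Jchain), and 0 to 2 on leaving out arrays. Without any 1 Sca-1+ array, or without Sca-1- replicate 1, 2 or 3, Dntt was no longer called, and without both arrays of replicate 1, 2 or 3 neither was Jchain. The number of called genes was 182 with no filter, 1233 with the slide as a replicate block (416 higher and 817 lower), 1336 with array weights and 1 to 879 on leaving out arrays. Without both arrays of replicate 1, 2, 3 or 4 it was 1, 2, 29 and 879. Leaving out 1 array gave 225 without Sca-1+ replicate 2, 176 without Sca-1+ replicate 3, and 165, 163 and 205 without Sca-1- replicates 1, 2 and 3. The block changed no member's call. Sox4 was not called with no filter (limma adjusted p = 0.0657), and Cd93 was not without both arrays of replicate 1 or 2 (limma adjusted p = 0.0705 and 0.0882). The cause of these changes was not tested, except that fewer arrays or more genes entered some fits.

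Values of Rag1 and Rag2 are limited by background, and the labels do not tie replicates to animals or cultures.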
